A study of Mus musculus with 6 samples.

Results

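The SLC25 genes encode the mitochondrial carrier family, and 41 of them were read in mouse white adipose tissue after ginsenoside Rb1 or saline. Members were all genes whose symbol starts with Slc25a, 47 of the 22040 genes counted, and the 41 kept had 10 or more counts in at least 3 of the 6 libraries. Mice of the Rb1 group received ginsenoside Rb1, a triterpene saponin of ginseng, by intraperitoneal injection at 14 mg/kg per day. Mice of the control group, CTR, received saline by the same route. Each group had 3 libraries of total RNA. The depot, the duration of treatment and the strain, sex, age and diet of the mice are not stated here. Whether each library is 1 mouse is not stated either, and the p-values then describe library-to-library spread, part of which may be technical.

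SLC25 proteins share a fold made of repeated pairs of membrane helices and sit almost all in the inner mitochondrial membrane, where they exchange nucleotides, phosphate, carboxylates, amino acids, acylcarnitines and cofactors between cytosol and matrix. In white fat, citrate leaves the matrix through this family to supply carbon for fatty acid synthesis, and acylcarnitines enter through it for oxidation. The genes are nuclear, and most of the proteins are inserted into the inner membrane by a dedicated translocase, TIM22. The study's title links Rb1 to myostatin and anti-obesity action, and Rb1 is set against CTR to find transcripts that respond in fat.

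Total counts ran from 15440339 to 24501446 per library. Of 8 white adipocyte markers, 5 had positive and 3 negative fold changes, with a median log2 fold change of 0.19. DESeq2 called 1 of them higher, where it called 0.589% of all genes higher. Without CTR replicate 2 the median was 0.15, and DESeq2 called 0 higher, where it called 0.236% of all genes higher. With all libraries edgeR called 0 (2 were higher at unadjusted p below 0.05, where 4.01% of all genes were). Adipoq, the adiponectin gene, stood at 1275 to 1511 FPKM in Rb1 and 1513 to 1672 FPKM in CTR, among the 3 that were negative. By FPKM, all Rb1 values lay above all CTR values for 2 of the 8 markers, where 5.48% of all tested genes did so. They lay below for 1, Adipoq, where 10.5% of all tested genes did so. FPKM is the count scaled to gene length and to the total of the library, and CPM is scaled to the total alone. CTR replicate 2 stood apart through skeletal muscle transcripts: of all its counts, 3.97% fell on 22 muscle markers (95% exact binomial bounds 3.96 and 3.98), against 0.0113% to 0.0318% in the Rb1 libraries and 0.0625% and 0.0648% in CTR replicates 1 and 3. For this reason the comparison was also made without CTR replicate 2. In bulk tissue, fewer cells of a type and less RNA per cell cannot be told apart.

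The 41 members took a small and similar share of all counts in both groups, 0.214%, 0.220% and 0.236% in Rb1 replicates 1, 2 and 3 and 0.240%, 0.254% and 0.216% in CTR replicates 1, 2 and 3. The ranges of the groups overlapped, and the highest share was that of CTR replicate 2. Levels spread over a 457-fold range between the highest and lowest member mean. Of the 41, 6 averaged at least 20 FPKM, 10 averaged 10 to 20, 15 averaged 1 to 10 and 10 averaged under 1 FPKM. The 6 most abundant members made up 57.0% of the summed family FPKM. In order, these were Slc25a4 (93.9 ± 41.4 FPKM over the 6 libraries, SD), Slc25a1 (54.5 ± 13.1), Slc25a5 (50.03 ± 7.42), Slc25a10 (36.2 ± 7.96), Slc25a46 (23.0 ± 1.09) and Slc25a17 (22.5 ± 1.87). Neighbours in this order had overlapping ranges over the 6 libraries, although Slc25a4 exceeded Slc25a1 in each of the 6. Along the whole order of 41, the ranges of neighbours did not overlap at only 3 steps, between Slc25a51 and Slc25a20, between Slc25a16 and Slc25a30, and between Slc25a36 and Slc25a35.

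**Figure D1:**
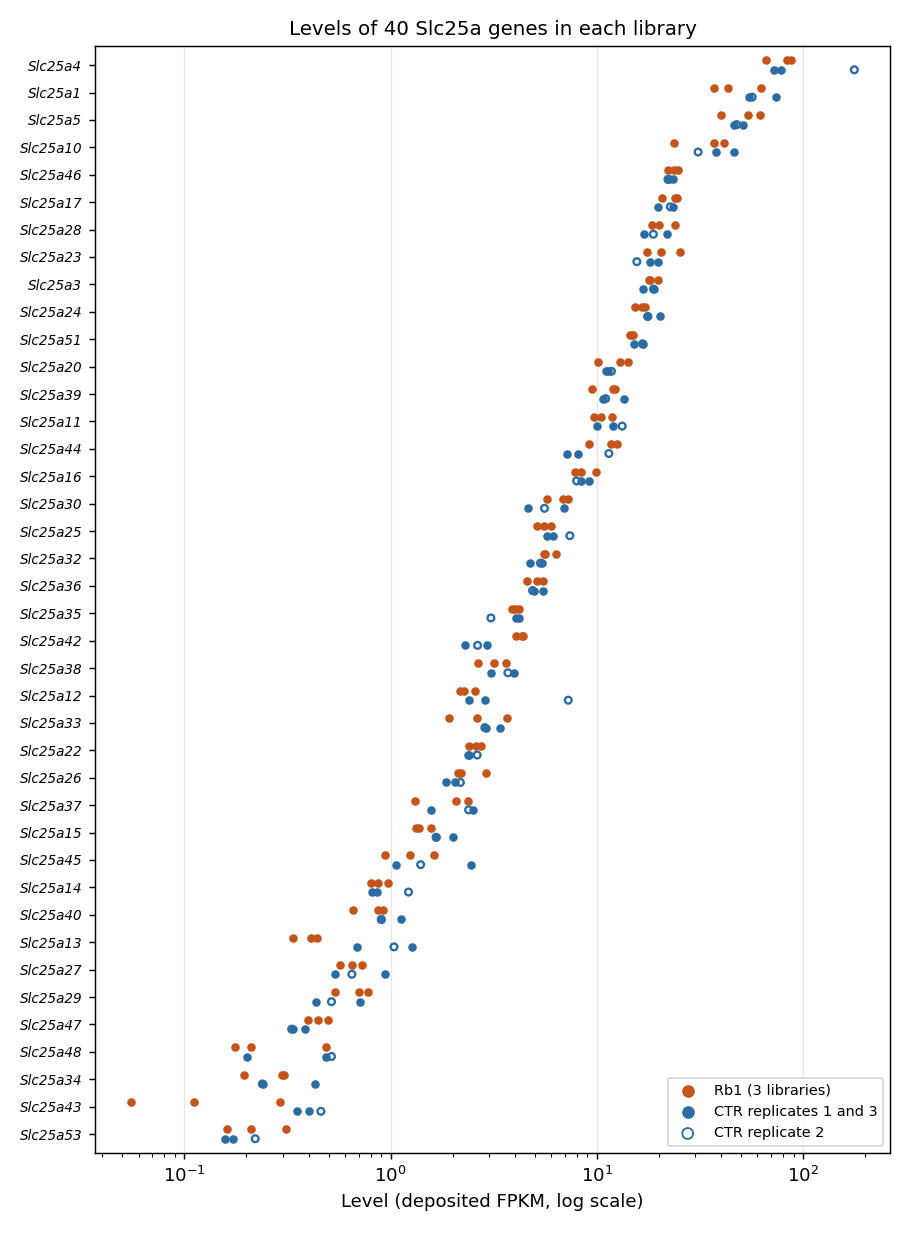
Deposited FPKM (log axis) of 40 of the 41 Slc25a genes in each library, ordered by mean level; orange points are the 3 Rb1 libraries, filled blue points CTR replicates 1 and 3, and the open blue circle CTR replicate 2. The open circle lies well to the right of the other points for Slc25a4 (177 FPKM) and Slc25a12 (7.26 FPKM), and the orange points lie apart from the blue ones for Slc25a42 and Slc25a13.

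The other 6 Slc25a genes fell under the count minimum. Slc25a54 had 0 counts in every library, which allows up to 0.122 to 0.194 CPM at these depths. Slc25a31, the adenine nucleotide carrier of germ cells, had 2, 0 and 0 counts in Rb1 and 3, 0 and 1 in CTR, and Slc25a41, Slc25a2, Slc25a18 and Slc25a21 reached at most 10 counts in any library. Just inside the minimum was Slc25a43, with 10 counts or more in 4 of the 6 libraries, all 3 of CTR and Rb1 replicate 2. It was thus kept through CTR, the group where it was higher, and its fold change is not independent of the minimum. Just outside the minimum was Slc25a21, with 10 counts in Rb1 replicate 3 and 4 or fewer elsewhere.

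Rb1 against CTR, no member passed the test over all genes. The test was edgeR's quasi-likelihood test with Benjamini-Hochberg adjustment at 0.05, which called 0 of 41 members, where 0.0071% of the 14093 tested genes were called. At an unadjusted p under 0.05 there were 3 members (7.32%), Slc25a42, Slc25a13 and Slc25a43, where 11.6% of all tested genes had such a p. Slc25a43 was kept through its CTR counts alone, so its place among the 3 is not support. DESeq2, run as an alternative, called 2 of 41 (4.88%), Slc25a42 higher and Slc25a13 lower, where it called 2.74% of genes, 0.589% higher and 2.15% lower. Counts this close to the background are not read as a result about the family. The median log2 fold change was -0.01 over the members and 0.01 over all tested genes, with 20 members positive and 21 negative, where 51.3% of all tested genes were positive. The median size of the change, regardless of sign, was 0.16 for the members and 0.16 for all tested genes, and 37 of 41 members (90.2%) lay within 0.5 of 0, against 85.3% of all tested genes. Without CTR replicate 2, edgeR again called 0 of 41 members, where it called 0.00703% of all genes. At unadjusted p below 0.05 there were then 3 members (7.32%), Slc25a44, Slc25a42 and Slc25a13, where 8.32% of genes were. Slc25a43 was no longer among them. DESeq2 without that library called Slc25a42 alone as higher (0.236% of all genes). The member median was then 0.02.

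**Figure D2:**
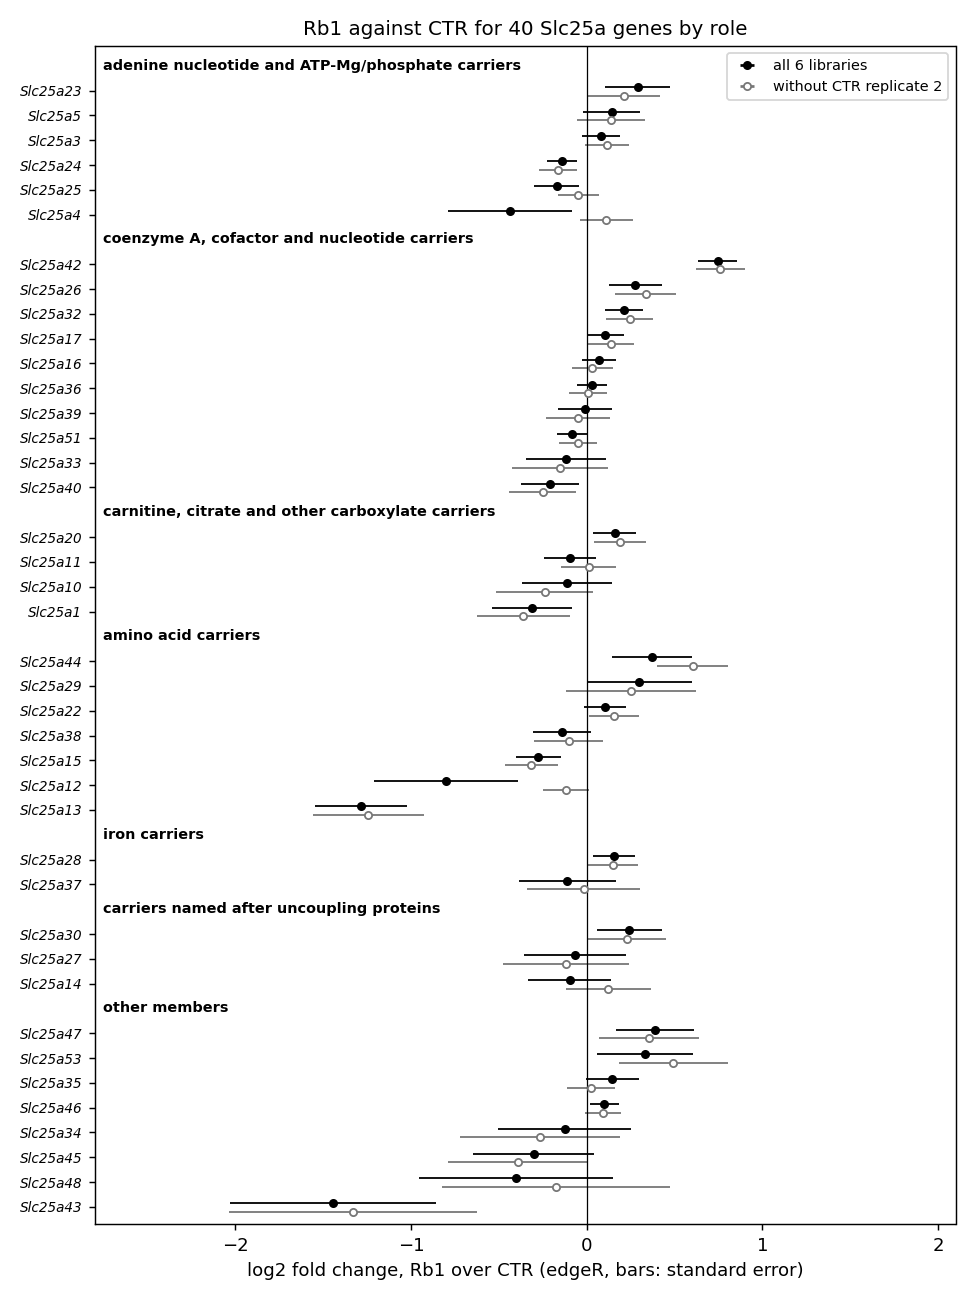
Log2 fold change of Rb1 over CTR with its standard error (edgeR) for 40 of the 41 members, grouped by role. The groups are transported substrates, carriers named after uncoupling proteins, and other members. Filled points use all 6 libraries and open points leave out CTR replicate 2. Most points lie within 0.5 of 0; Slc25a42 (0.75) lies to the right, Slc25a13 (-1.28) and Slc25a43 (-1.45) to the left, and the points of Slc25a4 and Slc25a12 move towards 0 or past it when CTR replicate 2 is left out.

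The FPKM of the groups did not overlap for 8 of 41 members (19.5%), where 16.0% of all tested genes had non-overlapping groups. Above all CTR values were the Rb1 values of 3 members (7.32%, where 5.48% of genes were), Slc25a42, Slc25a32 and Slc25a47. Below them were those of 5 members (12.2%, where 10.5% of genes were), Slc25a13, Slc25a43, Slc25a15, Slc25a24 and Slc25a51. Of these, Slc25a43 had met the count minimum only through CTR. The separation of Slc25a51, the NAD carrier, was slight (log2 fold change -0.08, and -0.050 without CTR replicate 2), with 14.5 to 15.03 FPKM in Rb1 against 15.05 to 16.7 FPKM in CTR. Without CTR replicate 2 the count was 10 of 41 (24.4%, where all genes had 23.6%), with Slc25a26 and Slc25a44 added above.

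The sequences before the start sites of 4 members are shown because the results turn on them: DESeq2 called Slc25a42 and Slc25a13, and Slc25a4 and Slc25a12 exceeded the other libraries most in CTR replicate 2. RefSeq windows on GRCm38.p6 were found for 32 of the 41 members, 41 windows in all, and each sequence is the 250 bases before a start, 5′ to 3′ on the gene's strand. Capitals mark matches on either strand to CCAAT, the box bound by NF-Y, and to GGGCGG, the box bound by Sp1. The windows of Slc25a42 (chr8:70212282-70212531, minus strand), Slc25a13 (chr6:6217174-6217423, minus strand), Slc25a4 (chr8:46211063-46211312, minus strand) and Slc25a12 (chr2:71367756-71368005, minus strand) read as follows.
Slc25a42: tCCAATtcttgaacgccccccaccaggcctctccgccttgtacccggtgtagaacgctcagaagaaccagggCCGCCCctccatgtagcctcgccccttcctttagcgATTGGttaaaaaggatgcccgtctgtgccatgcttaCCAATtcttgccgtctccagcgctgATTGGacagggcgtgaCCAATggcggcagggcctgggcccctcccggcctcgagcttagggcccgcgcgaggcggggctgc
Slc25a13: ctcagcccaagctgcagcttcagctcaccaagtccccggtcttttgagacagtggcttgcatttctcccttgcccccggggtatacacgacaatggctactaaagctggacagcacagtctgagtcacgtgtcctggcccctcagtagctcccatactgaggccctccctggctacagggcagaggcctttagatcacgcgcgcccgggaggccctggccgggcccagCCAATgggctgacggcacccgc
Slc25a4: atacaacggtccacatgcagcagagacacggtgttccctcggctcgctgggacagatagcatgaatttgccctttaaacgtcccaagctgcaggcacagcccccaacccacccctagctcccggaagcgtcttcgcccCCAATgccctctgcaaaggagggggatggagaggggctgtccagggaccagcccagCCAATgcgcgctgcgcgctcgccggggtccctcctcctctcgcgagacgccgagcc
Slc25a12: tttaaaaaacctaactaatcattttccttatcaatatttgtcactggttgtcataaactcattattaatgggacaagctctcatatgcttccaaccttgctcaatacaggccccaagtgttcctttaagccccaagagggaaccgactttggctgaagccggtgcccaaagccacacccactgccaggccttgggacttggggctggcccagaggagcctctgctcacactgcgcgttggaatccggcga

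The window of Slc25a42 held 5 matches to CCAAT and 1 to GGGCGG, and at least 5 matches to CCAAT occurred in 0.213% of 32851 windows of the same length. The bound of 5 was the count of this window itself, in a gene picked for its DESeq2 call, so the share is not a test. Slc25a13 had 1 match to CCAAT, Slc25a4 had 2 and Slc25a12 had 0. Of the 41 member windows, 48.78% held CCAAT and 75.61% held GGGCGG, where the shares of all windows were 33.85% and 32.74%. Some members had several windows, and those of Slc25a14 and Slc25a23 overlap, so 1 match can count more than once. The bases after the start lay in a transcript of the gene for 35 of the 41 windows. These shares are not a test either. The median GC content was 57.6% in the member windows and 52.4% in all windows. The NRF1 motif was in 1 member window, that of Slc25a3, and in 4.98% of all windows. The sterol element TCACNCCAC, the PPAR direct repeat and the ERR element TCAAGGTCA had 0 matches in member windows and were in 1.05%, 0.0335% and 0.387% of all windows. In the member windows 3 pairs of GGGCGG matches overlapped, none in the sequences shown, and 0 CCAAT matches overlapped a GGGCGG match. A match describes the letters of the window and not a binding site.

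Among the carriers of coenzyme A, cofactors and nucleotides, 7 of 11 tested members had positive fold changes, 0 were called by edgeR, and the median log2 fold change was 0.03. Slc25a42, which brings coenzyme A into the matrix in exchange for adenine nucleotides, had the smallest p of the family. The gene (ENSMUSG00000002346) lies on chromosome 8 from 70184340 to 70212305 on the minus strand of GRCm38, the assembly called mm10, and shares no exon position with another annotated gene. It stood at 4.31, 4.07 and 4.40 FPKM in Rb1 replicates 1, 2 and 3, and at 2.93, 2.64 and 2.29 FPKM in CTR replicates 1, 2 and 3, on 413 to 964 counts a library. All 3 Rb1 values lay above all 3 CTR values. The means were 4.26 ± 0.171 FPKM in Rb1 and 2.62 ± 0.324 FPKM in CTR (SD, n = 3 each), a 1.68-fold difference. The log2 fold change was 0.75 (SE 0.11, edgeR adjusted p = 0.128), which did not pass, while DESeq2 gave an adjusted p of 4.24e-05. This fold change stayed between 0.67 and 0.81 when any 1 library was left out, and was 0.76 without CTR replicate 2 (edgeR adjusted p = 0.289, DESeq2 adjusted p = 0.00480).

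Slc25a16, a relative of Slc25a42 that has also been linked to coenzyme A, stood at 8.67 ± 1.06 FPKM in Rb1 and 8.50 ± 0.619 FPKM in CTR (SD, n = 3 each), and its log2 fold change was 0.07, and 0.031 without CTR replicate 2. The ratio of Slc25a42 to Slc25a16 in FPKM was 0.438, 0.522 and 0.525 in the Rb1 libraries and 0.320, 0.331 and 0.274 in the CTR libraries. The groups did not overlap in this ratio, which was formed after the values of Slc25a42 had been seen and is given without a test. Genes of coenzyme A synthesis, among them the pantothenate kinases Pank1 to Pank4 and the synthase Coasy, had a median log2 fold change of 0.00 over 8 tested genes. Of these 8, 0 were called by edgeR or DESeq2 and 0 had an unadjusted p under 0.05. Pank3 was the most abundant, with 92.6 to 113 FPKM in Rb1 and 93.7 to 115 FPKM in CTR.

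Slc25a32, the folate and flavin carrier, had 6.36, 5.60 and 5.51 FPKM in Rb1 and 4.72, 5.32 and 5.40 FPKM in CTR. The gap between its groups was narrower than the spread within either, and edgeR gave a log2 fold change of 0.21 (SE 0.11, adjusted p = 0.514). Slc25a26, which imports S-adenosylmethionine, had 2.88, 2.13 and 2.1997 FPKM in Rb1 and 1.85, 2.18 and 2.06 FPKM in CTR, with overlapping groups and a log2 fold change of 0.28 (adjusted p = 0.542). Slc25a17, the peroxisomal member, had 24.3, 20.6 and 24.0 FPKM in Rb1 and 23.5, 22.7 and 19.8 FPKM in CTR, a log2 fold change of 0.11. The glutathione carriers Slc25a39 (-0.01, and -0.047 without CTR replicate 2) and Slc25a40 (-0.21) and the pyrimidine nucleotide carriers Slc25a33 (-0.12) and Slc25a36 (0.03, and 0.0079 without it) had overlapping groups. Exons of 12 of the 41 members share positions with another annotated gene. Among them are Slc25a10, Slc25a23, Slc25a26 and Slc25a46, where the other gene lies on the opposite strand, and use of strand in counting is not stated. For Slc25a47 and Slc25a51, also among the 12, the other gene lies on the same strand, so use of strand would not separate them.

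**Figure D3:**
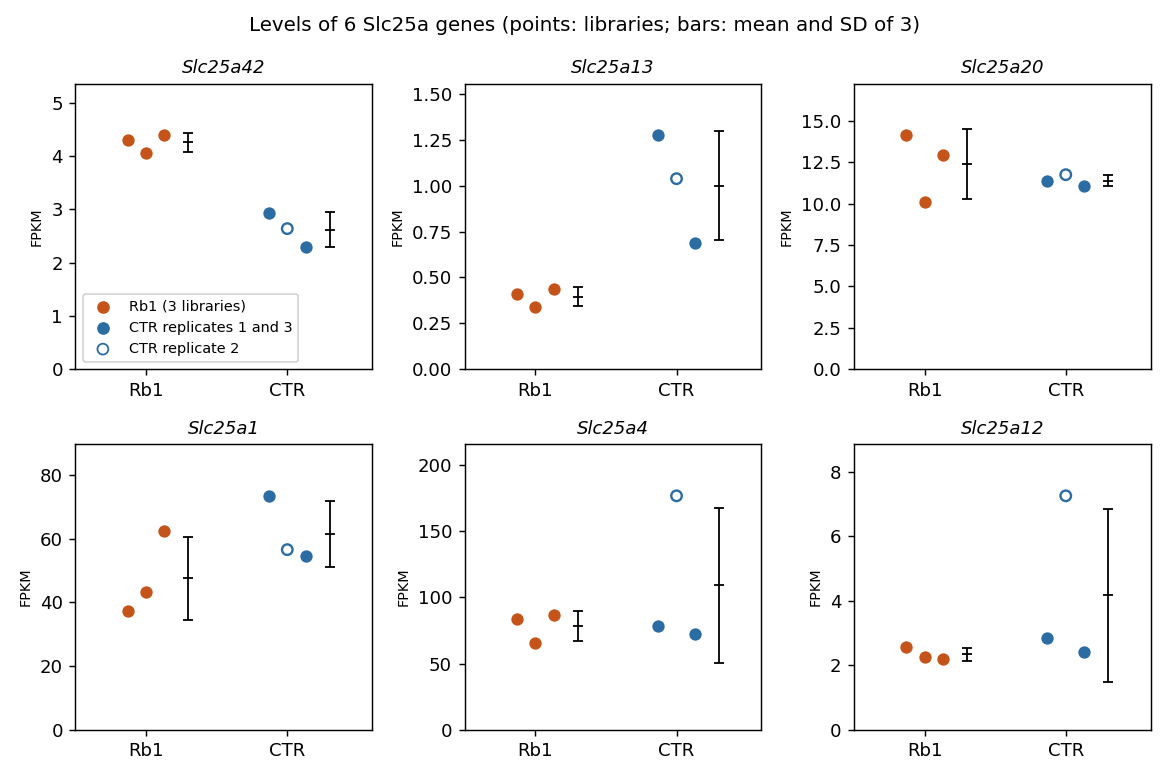
FPKM of 6 members in each library, Rb1 left of CTR in every panel, with the mean and SD of 3 libraries as a bar beside the points; the open circle is CTR replicate 2. The groups are apart for Slc25a42 and Slc25a13, overlap for Slc25a20 and Slc25a1, and differ for Slc25a4 and Slc25a12 mainly through the open circle.

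The amino acid carriers held the member with the next smallest p. Of 7 tested, 3 had positive and 4 negative fold changes, and 0 were called by edgeR. Slc25a13, an aspartate and glutamate exchanger that serves the malate-aspartate shuttle and is best known from liver, lies on chromosome 6 from 6041218 to 6217173 on the minus strand. Its level was low, at 0.411, 0.335 and 0.438 FPKM in Rb1 replicates 1, 2 and 3, and 1.28, 1.04 and 0.687 FPKM in CTR replicates 1, 2 and 3. These rest on 45, 28 and 58 counts in Rb1 and 132, 132 and 75 counts in CTR. Every Rb1 value lay below every CTR value, and CTR replicate 3 was the closest. The log2 fold change was -1.28 (SE 0.26, edgeR adjusted p = 0.195). DESeq2 called it with an adjusted p of 0.0108, and without CTR replicate 2 no longer did (log2 fold change -1.24 in edgeR, DESeq2 adjusted p = 0.143).

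Markers of other cell types are given beside these members. Of 8 macrophage markers, 7 had negative fold changes with a median of -0.65, and their summed level was 1043 to 1616 CPM in Rb1 and 1789 to 2154 CPM in CTR. DESeq2 called 4 of the 8 lower, where it called 2.15% of all genes lower, and edgeR called 0 (5 were lower at unadjusted p below 0.05, where 7.54% of all genes were). The median was -0.49 without CTR replicate 2, and DESeq2 then called 3 lower, where it called 1.02% of all genes lower. None of the 8 was at 0 in any library. Erythroid markers had positive fold changes in all 5 tested, with a median of 0.74 and a summed level of 421 to 644 CPM in Rb1 and 238 to 410 CPM in CTR. DESeq2 called 1 of them, Hba-a1, higher, where it called 0.589% of all genes higher, and edgeR called 0 (4 were higher at unadjusted p below 0.05, where 4.01% of all genes were). Leaving out CTR replicate 2 gave a median of 0.56 and 0 calls by DESeq2. In edgeR 1 then had an unadjusted p below 0.05, with a positive fold change, where 8.32% of all genes had such a p in either direction. The part of either cell type in the values of Slc25a42 and Slc25a13 was not tested.

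Slc25a12, the second aspartate and glutamate exchanger and the form known from muscle, heart and brain, had 2.58, 2.27 and 2.18 FPKM in Rb1, and 2.86, 7.26 and 2.40 FPKM in CTR. CTR replicate 2 was far above the other 5 libraries, which lay between 2.18 and 2.86 FPKM. Its log2 fold change was -0.80 (SE 0.41, edgeR adjusted p = 0.518) with that library and -0.12 (adjusted p = 0.875) without it. The ratio of Slc25a12 to Slc25a13 was 6.26, 6.75 and 4.98 in Rb1 and 2.24, 6.99 and 3.49 in CTR. Slc25a12 was thus the more abundant of the pair in every library, and outside CTR replicate 2 the ratio was higher in all Rb1 libraries. Without that library the log2 fold change of Slc25a13 was -1.24, so the ratio mostly restates the values of Slc25a13. It is given without a test.

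Slc25a44, the carrier of branched-chain amino acids known from brown fat, had 9.15, 12.5 and 11.8 FPKM in Rb1 and 7.14, 11.4 and 8.06 FPKM in CTR. With CTR replicate 2 the groups overlapped, at a log2 fold change of 0.37 (edgeR adjusted p = 0.598). Without it they did not, at a log2 fold change of 0.60 (edgeR unadjusted p = 0.0234, adjusted p = 0.494). Brown adipocyte markers, 7 genes that include Ucp1, summed to 22.8 to 40.1 CPM in Rb1, and to 21.1, 56.0 and 17.8 CPM in CTR replicates 1, 2 and 3. Their median log2 fold change in edgeR was -0.76, with 2 positive and 5 negative. Without CTR replicate 2 it was 0.37, with 5 positive and 2 negative. Either way 0 were called by edgeR or DESeq2. In edgeR without that library 1 had an unadjusted p below 0.05, where 8.32% of all genes did. Ucp1 itself was at 0 in Rb1 replicate 2 and CTR replicate 3. The part of such cells in the level of Slc25a44 was not tested, nor was that of muscle RNA in the marker sum of CTR replicate 2.

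Slc25a15, the ornithine carrier of the urea cycle, had 1.57, 1.37 and 1.33 FPKM in Rb1 and 1.998, 1.66 and 1.66 FPKM in CTR. The groups did not overlap, with a log2 fold change of -0.28 (SE 0.13, edgeR adjusted p = 0.473). The glutamate carrier Slc25a22 (0.10, and 0.16 without CTR replicate 2), the basic amino acid carrier Slc25a29 (0.30) and the glycine carrier Slc25a38 (-0.14) had overlapping groups.

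No carboxylate or carnitine carrier differed beyond the spread between libraries. Of 4 tested members, edgeR and DESeq2 called 0, 0 had an unadjusted p under 0.05 in edgeR, and 0 had non-overlapping groups. Slc25a1, the citrate carrier (chromosome 16, 17925223 to 17928219, minus strand), had 37.1, 43.2 and 62.3 FPKM in Rb1 replicates 1, 2 and 3, and 73.4, 56.5 and 54.4 FPKM in CTR replicates 1, 2 and 3. Rb1 replicates 1 and 2 lay below all CTR values and Rb1 replicate 3 lay among them. The means were 47.5 ± 13.1 FPKM in Rb1 and 61.5 ± 10.4 FPKM in CTR (SD, n = 3 each), with a log2 fold change of -0.31 (SE 0.23, edgeR adjusted p = 0.663). Leaving out 1 library gave values between -0.58, without Rb1 replicate 3, and -0.13, without Rb1 replicate 1.

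Slc25a10, the dicarboxylate carrier, had 23.6, 41.3 and 37.0 FPKM in Rb1 and 46.2, 30.9 and 37.8 FPKM in CTR. Its lowest value was that of Rb1 replicate 1, and without that library the log2 fold change of -0.11 turned to 0.12. It was -0.24 without CTR replicate 2. Rb1 replicate 1 was also the lowest library for Fasn, the fatty acid synthase, at 48.6 FPKM, against 206 and 169 FPKM in Rb1 replicates 2 and 3 and 89.5 to 114 FPKM in CTR. The same library was lowest for Acly, which splits exported citrate, at 25.2 FPKM, with 27.9 to 32.7 FPKM in the other 5. Of 8 tested partners of citrate export, 7 had positive fold changes, where 51.3% of all tested genes did. Their median was 0.16, and 0 were called by either tool. The largest were those of Acaca (0.70, SE 0.36) and Fasn (0.52, SE 0.50), both with overlapping groups. The point estimate of Slc25a1 was negative. Slc25a11, the oxoglutarate carrier, had a log2 fold change of -0.09, and 0.01 without CTR replicate 2.

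Slc25a20, the carnitine and acylcarnitine exchanger of fatty acid oxidation (chromosome 9, 108662088 to 108684641, plus strand), had 14.1, 10.1 and 12.96 FPKM in Rb1 and 11.3, 11.8 and 11.1 FPKM in CTR. The Rb1 values lay on both sides of the CTR values. The log2 fold change was 0.16 (SE 0.12, edgeR adjusted p = 0.678), and 0.19 without CTR replicate 2. Its partners in the carnitine shuttle, 6 tested genes with Cpt1a, Cpt2 and Crat among them, had a median of 0.00, with 0 called by edgeR or DESeq2 and 0 at unadjusted p below 0.05. Cpt1b, the muscle form of the outer membrane transferase, had 3.65, 1.18 and 2.64 FPKM in Rb1 and 3.74, 10.3 and 2.03 FPKM in CTR, and its log2 fold change of -1.08 was -0.16 without CTR replicate 2.

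Of 6 carriers of adenine nucleotides and phosphate, 3 had positive and 3 negative fold changes and 0 were called by either tool. They included the most abundant member, Slc25a4, the ADP/ATP exchanger of heart and skeletal muscle (chromosome 8, 46206797 to 46211284, minus strand). It stood at 83.4, 65.6 and 86.9 FPKM in Rb1 replicates 1, 2 and 3, and at 78.4, 177 and 72.1 FPKM in CTR replicates 1, 2 and 3. CTR replicate 2 lay above all others, and the remaining 5 libraries lay between 65.6 and 86.9 FPKM. With all libraries the log2 fold change was -0.44 (SE 0.35, edgeR adjusted p = 0.701), and without CTR replicate 2 it was 0.11 (SE 0.15, adjusted p = 0.911). The direction for Slc25a4 therefore rested on that library.

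Slc25a5, the ADP/ATP exchanger that most other tissues use, had 53.8, 39.8 and 61.6 FPKM in Rb1 and 51.3, 47.6 and 46.1 FPKM in CTR. CTR replicate 2 did not stand out for Slc25a5, and the log2 fold change was 0.14 (SE 0.16). The ratio of Slc25a4 to Slc25a5 was 1.55, 1.65 and 1.41 in Rb1, and 1.53, 3.72 and 1.56 in CTR. Outside CTR replicate 2 it was therefore between 1.41 and 1.65 in both groups. Both genes encode closely similar proteins, and the assignment of reads shared between such copies is not stated. The phosphate carrier Slc25a3 (0.08) and the calcium-regulated ATP-Mg/phosphate carriers Slc25a23 (0.29), Slc25a24 (-0.14) and Slc25a25 (-0.17, and -0.047 without CTR replicate 2) had edgeR adjusted p between 0.603 and 0.834, and of these 4 only Slc25a24 had non-overlapping groups.

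Among 6 outer membrane channels and partners of ATP exchange, the median log2 fold change was -0.18, and 0.03 without CTR replicate 2. Vdac1, the main channel, had 35.3, 32.0 and 39.97 FPKM in Rb1 and 37.7, 61.3 and 35.8 FPKM in CTR. Ckmt2, the mitochondrial creatine kinase of muscle, had 0.133, 0 and 0.0549 FPKM in Rb1 and 1.62, 25.9 and 0.467 FPKM in CTR. DESeq2 called Ckmt2 lower (adjusted p = 0.00702) and edgeR did not (adjusted p = 0.263). Without CTR replicate 2 its DESeq2 adjusted p was 0.0550.

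**Figure D4:**
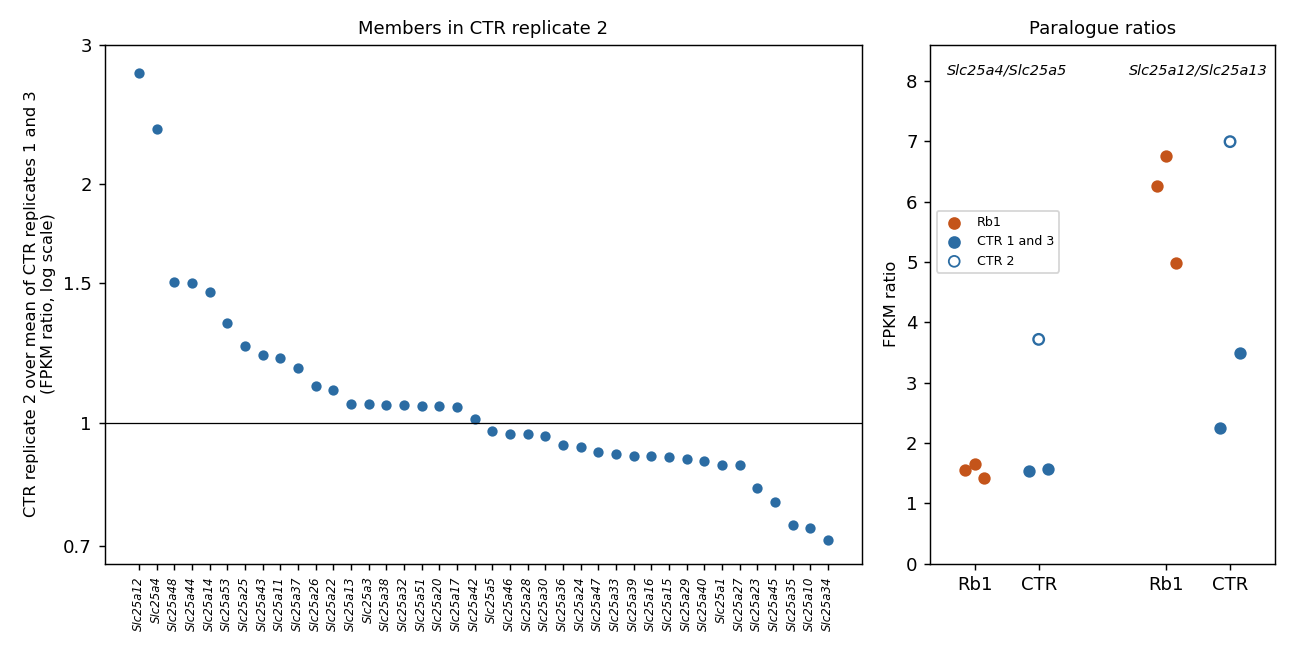
Left, FPKM in CTR replicate 2 divided by the mean of CTR replicates 1 and 3 for 40 of the 41 members (log axis); right, the ratio of Slc25a4 to Slc25a5 and of Slc25a12 to Slc25a13 in each library, Rb1 left of CTR. Slc25a12 (2.76) and Slc25a4 (2.35) lead on the left and the next members are at 1.51 or below; on the right the open circle of CTR replicate 2 is the highest for both pairs.

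CTR replicate 2 exceeded the mean of CTR replicates 1 and 3 at least 2-fold for 2 of 41 members (4.88%, where 3.32% of all tested genes did), Slc25a12 at 2.76 times and Slc25a4 at 2.35 times. For 37 of 41 it was within 1.5 times in either direction, and the median ratio was 1.01. For the 22 muscle markers the median ratio was 54.4. All 22 had negative fold changes, with a median of -6.25 and, without CTR replicate 2, of -2.17, and edgeR called 0 of them (20 were lower at unadjusted p below 0.05, where 7.54% of all genes were). DESeq2 gave no p for 18 of the 22 and called 2 of the other 4 lower, where it called 2.15% of all genes lower. With CTR replicate 2 left out it gave a p for all 22 and called 5 lower, where it called 1.02% of all genes lower. CTR replicate 2 was the highest of the 6 libraries for 7 members (17.1%, where 16.8% of all tested genes were highest there), namely Slc25a4, Slc25a11, Slc25a25, Slc25a12, Slc25a14, Slc25a48 and Slc25a43. Slc25a12 and Slc25a4 are known to be abundant in skeletal muscle, and the part of muscle RNA in their values was not tested beyond the values without that library.

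The iron carriers Slc25a28, which is expressed widely, and Slc25a37, the erythroid form, had log2 fold changes of 0.16 and -0.11 with overlapping groups. That of Slc25a37 was -0.017 without CTR replicate 2. Slc25a37 had 1.31, 2.36 and 2.07 FPKM in Rb1 and 2.50, 2.39 and 1.57 FPKM in CTR. The carriers named after uncoupling proteins, Slc25a14 (-0.09, and 0.12 without CTR replicate 2), Slc25a27 (-0.07, and -0.12 without it) and Slc25a30 (0.24), also overlapped between the groups.

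Among the remaining 8 members, Slc25a46, an outer membrane protein of mitochondrial fusion and fission, was the most even of the 6 most abundant genes. It had 24.8, 22.1 and 23.7 FPKM in Rb1 and 23.4, 22.1 and 22.2 FPKM in CTR, a log2 fold change of 0.10. Slc25a43, whose substrate is not settled, had the largest negative fold change of the family at the edge of detection, with 0.111, 0.291 and 0.0551 FPKM in Rb1 and 0.353, 0.459 and 0.401 FPKM in CTR. These rest on 5, 10 and 3 counts in Rb1 and 15, 24 and 18 counts in CTR, and the gene met the count minimum only through CTR. The log2 fold change of -1.45 had an SE of 0.59 (edgeR adjusted p = 0.424, DESeq2 adjusted p = 0.505), and leaving out 1 library moved it between -2.27 and -1.002. Slc25a47, known as a liver carrier, had 0.497, 0.398 and 0.444 FPKM in Rb1 and 0.386, 0.331 and 0.335 FPKM in CTR, with groups that did not overlap, on 30 to 53 counts a library (log2 fold change 0.39, SE 0.22, edgeR adjusted p = 0.571). Slc25a34 (-0.12), Slc25a35 (0.15), Slc25a45 (-0.30), Slc25a48 (-0.40) and Slc25a53 (0.33) had overlapping groups. Without CTR replicate 2 the log2 fold changes were -0.26 for Slc25a34, 0.023 for Slc25a35, -0.39 for Slc25a45, -0.17 for Slc25a48 and 0.49 for Slc25a53.

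Mitochondrial carriers outside the Slc25a symbols, 12 genes that include the uncoupling proteins, the pyruvate carrier subunits and the sideroflexins, had 0 calls in edgeR (2 had unadjusted p below 0.05, where 11.6% of all genes did) and 2 in DESeq2, where 2.74% of all genes were called. Without CTR replicate 2, DESeq2 called 1, Sfxn1, higher, where it called 0.236% of all genes higher. Sfxn1, the serine transporter of the inner membrane, had 10.2, 12.0 and 11.6 FPKM in Rb1, and 5.86, 6.03 and 7.34 FPKM in CTR. Its groups did not overlap, with a log2 fold change of 0.86 (SE 0.15, edgeR adjusted p = 0.167, DESeq2 adjusted p = 0.000368), and 0.82 without CTR replicate 2 (DESeq2 adjusted p = 0.0189). Ucp2, the uncoupling protein expressed by many immune cells, had 15.3, 13.3 and 13.4 FPKM in Rb1, and 20.1, 20.2 and 17.4 FPKM in CTR. Its groups did not overlap either, with a log2 fold change of -0.41 (edgeR adjusted p = 0.217, DESeq2 adjusted p = 0.00948), and -0.37 without CTR replicate 2 (DESeq2 adjusted p = 0.192). The part of macrophages, whose markers are given above, in the level of Ucp2 was not tested. The pyruvate carrier subunits Mpc1 (-0.26) and Mpc2 (-0.17) overlapped between the groups. Of 12 genes that import carriers into the inner membrane, 0 were called by either tool and the median was 0.00. Timm22, the channel of the translocase that inserts SLC25 proteins, had 3.86, 3.21 and 3.69 FPKM in Rb1, and 5.02, 4.80 and 4.48 FPKM in CTR. All Rb1 values lay below all CTR values at a log2 fold change of -0.37 (edgeR adjusted p = 0.309, DESeq2 adjusted p = 0.232).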

How the data were processed

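Libraries of total RNA from white adipose tissue of 3 Rb1 and 3 CTR samples were analysed from the deposited table. It holds, per the file headers, a read count and an FPKM value made by the authors for each gene and library. Per the submitters' processing notes, CASAVA 1.8 and TopHat2 2.0.6 were used with mm10; the sources used here do not name the counting tool, annotation or strand setting. The deposited FPKM values equal counts divided by 1 length per gene and by the library total, to within 0.00984% over 13169 genes, and were used for levels. The raw counts were tested with edgeR 4.0.16 (limma 3.58.1, R 4.3.3): TMM scaling, filterByExpr (minimum count 10, minimum total 15), which left 14093 genes, and a quasi-likelihood test of Rb1 over CTR with Benjamini-Hochberg adjustment at 0.05. The common dispersion corresponds to a coefficient of variation of 24.8%. Group sizes of 3 and 3 allow a single-gene exact permutation p of no less than 0.1, so none is given.

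Alternatives were DESeq2 1.42.0, RLE scaling, no filter, other count minimums, each library left out, and the replicate number as a block. Intervals and floors (3 counts) cover counting error only. No 2 libraries of a group agreed within sampling noise. Gene positions are from GENCODE M21 on GRCm38, and promoter windows from RefSeq. Members and lists were chosen with earlier results of these data known. Named with values in every library were Slc25a42, Slc25a20, Slc25a1, Slc25a4, the 6 most abundant members, the 4 smallest edgeR p in each direction and those called by DESeq2. Other genes with values in every library, such as Slc25a44, Slc25a37, Pank3, Vdac1, Fasn, Acly and Cpt1b, were chosen after their values were seen. A kept member and a marker gene counted in the totals are not reported here by name, and the member is left out of the plots.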

Additional observations from a re-analysis of the deposited data

How the results depend on the processing

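The number of genes called over the whole table was 1 in edgeR, 382 in DESeq2 and 175 in DESeq2 without CTR replicate 2, and leaving out 1 library gave 1 to 4. Members called were 0 in edgeR, 2 in DESeq2 and 1 in DESeq2 without CTR replicate 2. The log2 fold change of Slc25a42 was 0.75 in DESeq2, where it passed. The member median ranged from -0.063 to 0.092 with 1 library left out, and was -0.01 and 0.03 with count minimums of 5 and 50. Slc25a4 ranged from -0.66 to 0.11, the positive value being that without CTR replicate 2. Slc25a10 ranged from -0.31 to 0.12, positive without Rb1 replicate 1 (0.12) or CTR replicate 1 (0.01), and Slc25a5 from -0.029 to 0.28, negative without Rb1 replicate 3 (-0.029). Where values changed, the cause was not tested. With a replicate block, 1 gene and 0 members were called, and Slc25a42 had an adjusted p of 0.243. The deviations of same-numbered libraries had correlations of 0.136, -0.0784 and 0.000921 for replicates 1, 2 and 3. With 3 libraries a group, such values cannot settle whether the numbers pair the libraries. Members under 1 FPKM rest on few counts, which limits what could be detected for them.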
